A study of Drosophila melanogaster with 6 samples.

Results

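The Cpr genes of *Drosophila melanogaster* encode cuticular proteins that carry the Rebers and Riddiford consensus. They were taken here as all genes whose FlyBase symbol is Cpr followed by a digit, and those that reached 10 counts in the sum of all 6 libraries were kept. This left 43 of the 70 annotated Cpr genes, out of 17471 genes in the count tables. The tissue was the wing imaginal disc, the larval epithelium that gives rise to the adult wing, dissected from wandering females of the third larval instar. Libraries were made from 30 discs each, 3 of them from larvae homozygous for the *dLsd1∆N* allele, described by the study as null, and 3 from larvae of a *wild-type* stock, *w1118*. Per the study's methods the allele is a deletion made by recombining piggyBac elements from stocks that carry *w1118*, and was then kept over a balancer, while the *w1118* stock was inbred and not isogenised. An effect of the mutation and any other difference between these separately kept stocks cannot be told apart in the libraries. Discs were also taken whole, so that a change in RNA per cell and a change in the share of expressing cells cannot be told apart. dLsd1, encoded by *Su(var)3-3*, is a histone demethylase that removes methyl groups from lysine 4 of histone H3. Its own gene had 7, 6 and 1 counts in the *dLsd1* mutant libraries, against 2136, 676 and 2564 counts in the *wild-type* libraries.

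Insect cuticle is a layered matrix of chitin fibres and proteins that epidermal cells secrete at their apical face. The Rebers and Riddiford consensus is a stretch of amino acids that binds chitin, and the many genes that carry it are used at different stages and in different body regions, which gives soft larval and hard adult cuticle their different protein makeup. Disc cells of the wandering larva have yet to build the pupal and adult cuticle, and Cpr genes often lie beside each other in the genome in groups that arose by gene duplication.

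Library totals ranged between 13960866 counts in *wild-type* replicate 2 and 45909324 counts in *wild-type* replicate 3. CPM below are counts scaled to the library size after TMM normalization, per 1e+06 counts, and a level per kilobase is CPM divided by the summed length of the exons in kilobases. The 13 wing disc markers found in the tables were all measured, with summed levels between 2151 and 2304 CPM in *dLsd1* mutant libraries and between 1796 and 2779 CPM in *wild-type* libraries, and none of them was differentially expressed by edgeR (1 at an unadjusted p below 0.05, 0 by DESeq2). The fold changes are *dLsd1* mutant over *wild-type* from the quasi-likelihood F-test of edgeR, fitted across all genes and TE families together. A gene was called upregulated or downregulated when its log2 fold change was beyond 0.6 in either direction and its Benjamini-Hochberg adjusted p-value was below 0.1.

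In *dLsd1* mutant discs 12 Cpr genes were upregulated and 1 was downregulated, and the other 30 did not pass the thresholds. The 13 genes called were 30.2% of the members, whereas 6.55% of all 10841 genes tested were called. For upregulation the share was 27.9% of the Cpr genes and 4.32% of all genes. For downregulation it was 2.33% of the Cpr genes and 2.23% of all genes. The median log2 fold change of the 43 genes was 0.17, with 25 above 0, and that of all genes tested was -0.02. The genes upregulated were *Cpr67Fa1*, *Cpr67Fa2*, *Cpr64Aa*, *Cpr64Ac*, *Cpr47Ec*, *Cpr47Ed*, *Cpr66D*, *Cpr31A*, *Cpr56F*, *Cpr97Ea*, *Cpr92F* and *Cpr11A*, and the gene downregulated was *Cpr12A*. A further count, which uses no model, was of genes whose 3 *dLsd1* mutant libraries all lay on one side of the 3 *wild-type* libraries. All mutant libraries lay above in 15 Cpr genes (34.9%, against 13.2% of all genes) and below in 4 (9.30%, against 11.9% of all genes), and the genotypes overlapped in the remaining 24.

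The number of calls depended on single libraries. It was 7 without *dLsd1* mutant replicate 1, 5 without *dLsd1* mutant replicate 2, 8 without *dLsd1* mutant replicate 3 and 7 without *wild-type* replicate 1. It was 10 without *wild-type* replicate 2 and 18 without *wild-type* replicate 3. Calls over all genes moved in the same fits, to 4.61%, 3.53% and 4.03% of the genes tested without mutant replicate 1, 2 and 3, and to 4.08%, 6.05% and 15.0% without *wild-type* replicate 1, 2 and 3. *Cpr67Fa1*, *Cpr67Fa2*, *Cpr64Aa* and *Cpr47Ec* were upregulated in all 6 of these fits. The fitted biological coefficient of variation between libraries of a genotype had a median of 0.374 in the 43 members and 0.176 in all genes tested. These medians are not matched for level, and 25 of the 43 members had under 1 CPM per kilobase. In the 9 members with at least 10 CPM per kilobase it ranged between 0.145 (*Cpr49Ag*) and 0.296 (*Cpr51A*).

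**Figure D1:**
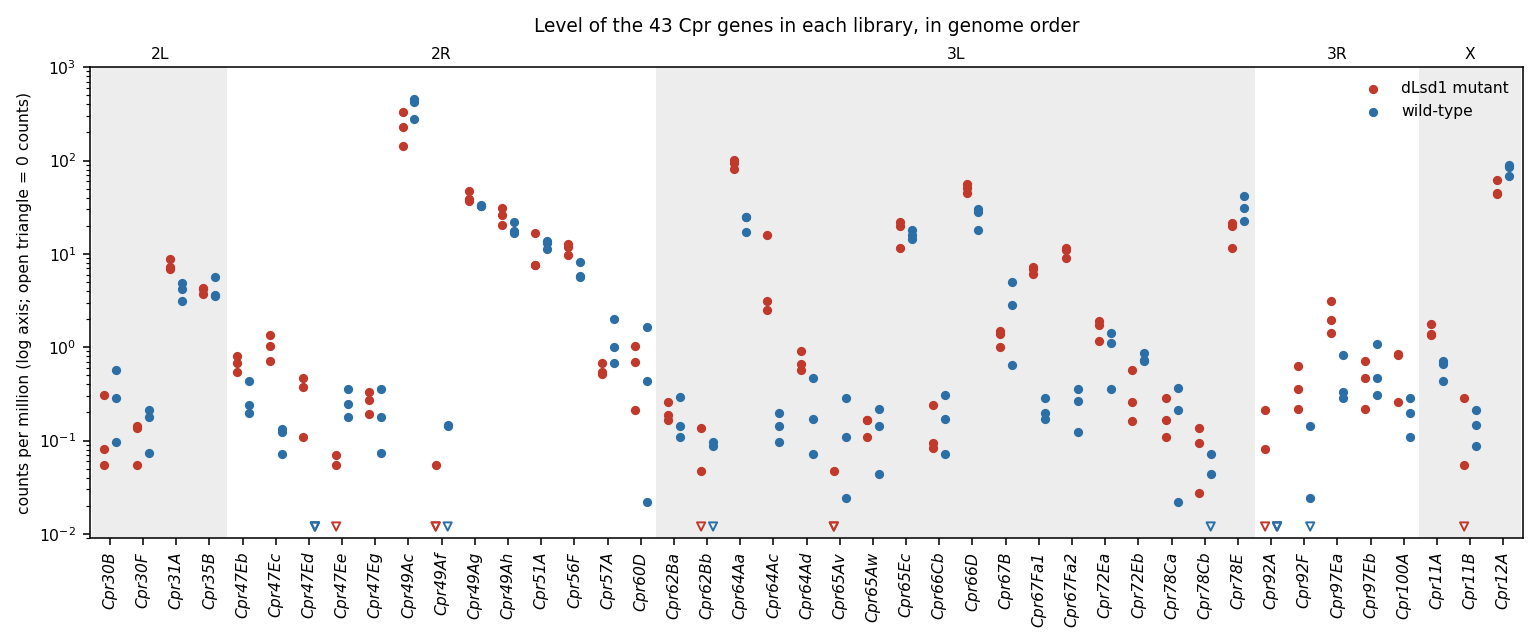
Level of each of the 43 Cpr genes in the 3 *dLsd1* mutant libraries (red, left) and the 3 *wild-type* libraries (blue, right), as CPM on a log axis, with genes in genome order by chromosome arm and open triangles for libraries with 0 counts. *Cpr67Fa1* and *Cpr67Fa2* lie at 6.06 CPM or more in every mutant library and at 0.358 CPM or less in every *wild-type* library, and *Cpr49Ac* is the highest gene in all 6.

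**Figure D2:**
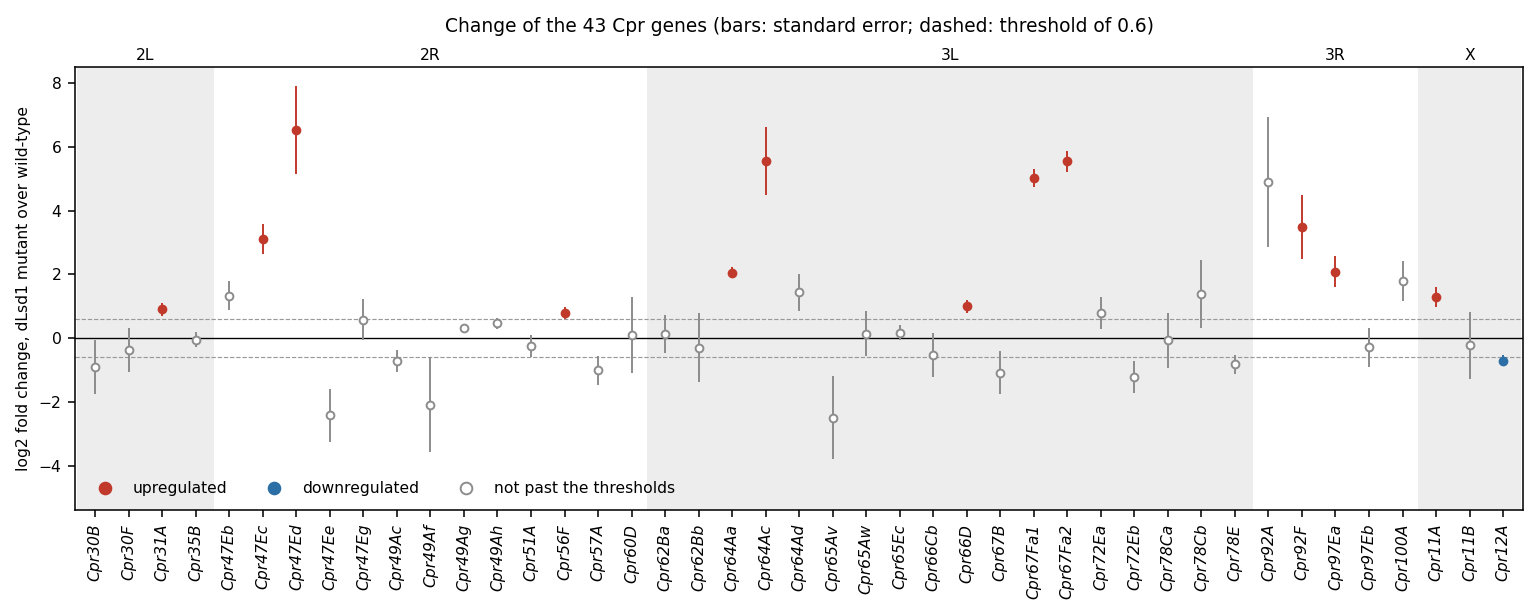
Log2 fold change, *dLsd1* mutant over *wild-type*, of the 43 Cpr genes in the same order, with bars for the standard error and dashed lines at the threshold of 0.6. The 12 upregulated genes are spread over all 5 chromosome arms, and the fitted values of *Cpr47Ed* and *Cpr92A*, which had 0 counts in every *wild-type* library, depend on the prior count and are no estimate of a fold.

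The plot of levels by library and the plot of fold changes show the genes by chromosome arm. On 3L 5 of 18 measured Cpr genes were upregulated, on 2R 3 of 13, on 3R 2 of 5, on 2L 1 of 4 and on X 1 of 3. The shares of all genes called on each arm are not given here, so no difference between arms can be read from these counts. Annotated Cpr genes whose neighbours lay no more than 50 kb apart were joined to 12 clusters, which held 49 of the 70 annotated genes and 25 of the 43 measured ones. The other 21 annotated genes stood alone, and 18 of them were measured. Of the upregulated genes, 7 lay in clusters and 5 stood alone. The 7 came from 4 clusters, named here by their cytological position as 67F, 64A, 47E and 97E. Positions are those of the BDGP6 annotation.

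The 2 Cpr genes with the lowest adjusted p-values were neighbours in cluster 67F, 3 genes in the same orientation on 3L (bases 10889990 to 10894693). *Cpr67Fa1* had 6.86, 7.29 and 6.06 CPM in *dLsd1* mutant discs, against 0.171, 0.286 and 0.199 CPM in *wild-type* discs. *Cpr67Fa2* had 11.7, 11.1 and 9.11 CPM in *dLsd1* mutant discs, against 0.122, 0.358 and 0.265 CPM in *wild-type* discs. Every mutant library was thus far above every *wild-type* library, and the libraries of each genotype lay close together. The log2 fold change was 5.02 ± 0.27 (SE) for *Cpr67Fa1*, with an adjusted p of 2.54e-05 in edgeR. It was 5.54 ± 0.32 (SE) for *Cpr67Fa2*, with an adjusted p of 4.06e-05 in edgeR. The *wild-type* values rest on between 4 and 12 counts per library. The 2 genes lie 1013 bases apart and bear names of sister copies, and how reads that match both were assigned is not given, so their counts may not be independent. Their sum was called as 1 upregulated gene when they were joined before the fit. The last gene of the cluster, *Cpr67Fb*, did not reach 10 counts.

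Cluster 64A on 3L (bases 4207838 to 4216414) holds 4 genes, of which 3 were measured. *Cpr64Aa* had 81.8, 102 and 94.6 CPM in *dLsd1* mutant discs, against 17.0, 24.9 and 25.1 CPM in *wild-type* discs. Its genotypes did not overlap, and its log2 fold change of 2.06 ± 0.18 (SE) had an adjusted p of 0.000417 in edgeR. *Cpr64Ac* had 3.10, 2.499 and 15.9 CPM in *dLsd1* mutant discs, against 0.0977, 0.143 and 0.199 CPM in *wild-type* discs. All mutant libraries lay above all *wild-type* ones, but mutant replicate 3 was far above the other mutant libraries, and the log2 fold change of 5.56 had a standard error of 1.06 (adjusted p of 0.0427 in edgeR). This call was lost without *wild-type* replicate 1 and without *wild-type* replicate 2. *Cpr64Ad* had 0.658, 0.920 and 0.568 CPM in *dLsd1* mutant discs, against 0.171, 0.0715 and 0.464 CPM in *wild-type* discs. It was separate too, but its log2 fold change of 1.43 ± 0.58 (SE) did not pass the test (adjusted p of 0.229 in edgeR). Summed over the cluster the level was 85.6, 105 and 111 CPM in *dLsd1* mutant discs, against 17.3, 25.1 and 25.7 CPM in *wild-type* discs. The 3 measured genes lie within the span of *CG43367* but share no exon bases with it.

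Cluster 47E on 2R (bases 11251751 to 11278445) has 7 genes, 5 of them measured, and none above 1.34 CPM in any library. *Cpr47Ec* had 1.34, 0.707 and 1.03 CPM in *dLsd1* mutant discs, against 0.122, 0.0715 and 0.133 CPM in *wild-type* discs, which is 49, 30 and 38 counts against 5, 1 and 6. The genotypes were separate and the log2 fold change was 3.10 ± 0.47 (SE, adjusted p of 0.00720 in edgeR). *Cpr47Ed*, 1102 bases away, had 17, 16 and 4 counts in *dLsd1* mutant libraries and 0 in all 3 *wild-type* libraries. Set against a floor of 3 counts over the *wild-type* group, its level in mutant libraries was 10.7-fold higher, a value that leaves out the error of the mutant counts. Its adjusted p in edgeR was 0.0511, and the call was lost without mutant replicate 1, mutant replicate 2 or *wild-type* replicate 1. *Cpr47Eb* had 0.686, 0.802 and 0.541 CPM in *dLsd1* mutant discs, against 0.195, 0.429 and 0.243 CPM in *wild-type* discs, with a log2 fold change of 1.33 ± 0.45 (SE, adjusted p of 0.157 in edgeR). *Cpr47Ee* pointed the other way, with 2, 3 and 0 counts in *dLsd1* mutant libraries, against 10, 5 and 8 counts in *wild-type* libraries. Its libraries were separate, but its log2 fold change of -2.43 ± 0.83 (SE) did not pass the test (adjusted p of 0.160 in edgeR). The fitted signs thus differed between neighbours of this cluster. *Cpr47Eg* overlapped between genotypes with a log2 fold change of 0.58.

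**Figure D3:**
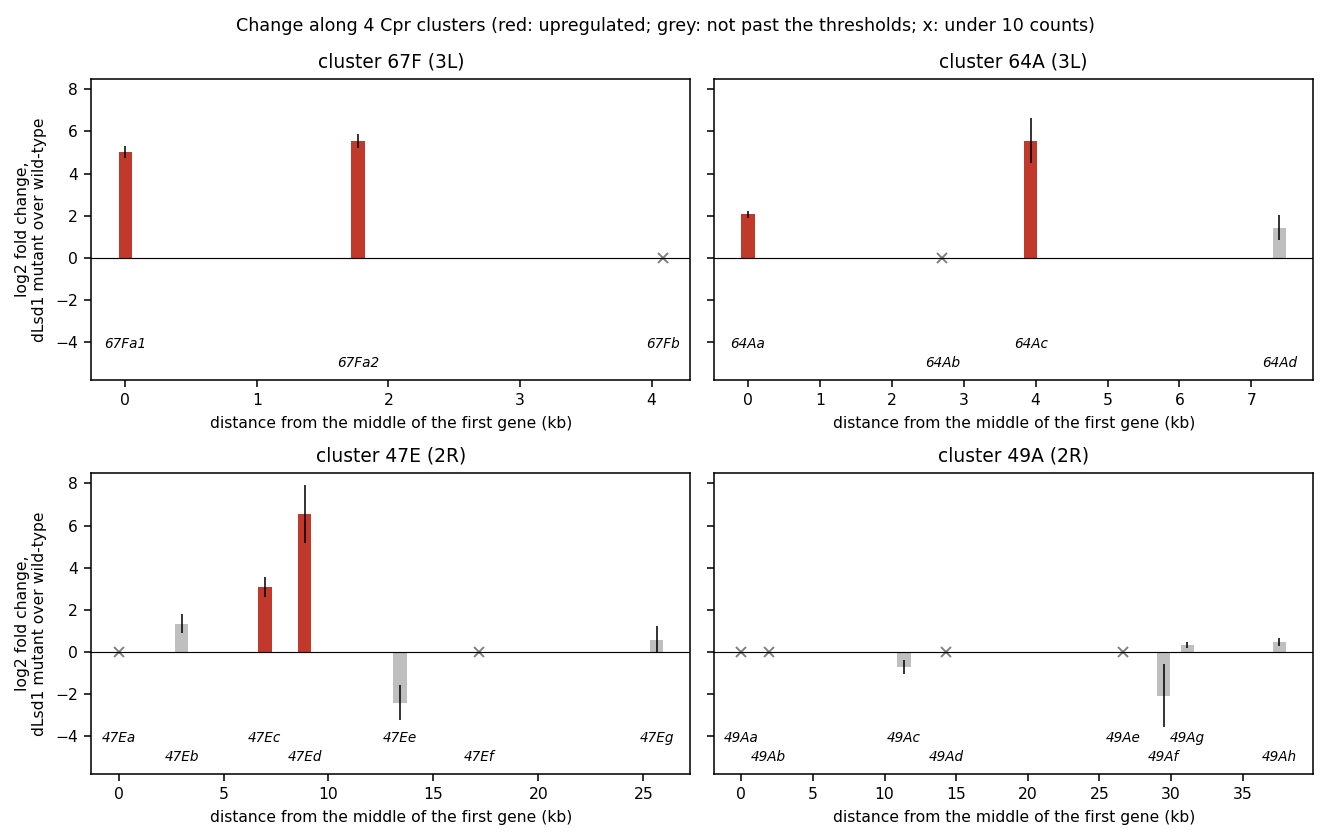
Log2 fold change, *dLsd1* mutant over *wild-type*, of the Cpr genes of clusters 67F, 64A, 47E and 49A, by distance in kb from the middle of the first gene of the cluster, with bars for the standard error and crosses for genes with under 10 counts. Both measured genes of 67F, 2 of 3 of 64A and 2 of 5 of 47E are upregulated (red), and none of the 4 of 49A is. The height for *Cpr47Ed*, at 0 counts in *wild-type*, is a fitted value that depends on the prior count.

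The cluster with the most Cpr RNA held no call, as the plot along the clusters shows. Cluster 49A on 2R (bases 12376626 to 12415170) has 8 genes, and 0 of the 4 measured passed in edgeR or DESeq2, with *Cpr49Ag* and *Cpr49Ah* at unadjusted p-values of 0.0287 and 0.0296 in edgeR. *Cpr49Ac* was the highest Cpr gene of the disc, with 331, 227 and 143 CPM in *dLsd1* mutant discs, against 423, 277 and 455 CPM in *wild-type* discs. The ranges overlapped, and the log2 fold change of -0.72 ± 0.34 (SE) did not pass the test (adjusted p of 0.319 in edgeR). *Cpr49Ag* had 47.4, 37.1 and 38.3 CPM in *dLsd1* mutant discs, against 33.0, 32.6 and 32.7 CPM in *wild-type* discs. Its genotypes did not overlap, but the log2 fold change was 0.32 ± 0.12 (SE, adjusted p of 0.200 in edgeR). *Cpr49Ah* had 20.5, 26.1 and 31.3 CPM in *dLsd1* mutant discs, against 17.8, 22.1 and 16.7 CPM in *wild-type* discs, with a log2 fold change of 0.47 ± 0.18 (SE, adjusted p of 0.203 in edgeR). *Cpr49Af* had 2 counts over the mutant libraries and 8 over the *wild-type* libraries, a ratio of 0.216 with a 95% interval of 0.0224 to 1.08 for counting error only.

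In cluster 97E on 3R *Cpr97Ea* was upregulated and its neighbour *Cpr97Eb*, 1925 bases away, was not. *Cpr97Ea* had 3.10, 1.96 and 1.41 CPM in *dLsd1* mutant discs, against 0.830, 0.286 and 0.332 CPM in *wild-type* discs. The genotypes did not overlap and the log2 fold change was 2.08 ± 0.49 (SE, adjusted p of 0.0475 in edgeR), a call lost without mutant replicate 1 or 2. *Cpr97Eb* overlapped between genotypes at a log2 fold change of -0.29. The remaining clusters held no call among their Cpr genes. The *Lcp65A* genes, whose names carry the position of cluster 65A, are not members and are given below with their calls. Clusters 62B, 65A, 72E and 78C had 2 measured genes each and cluster 65E had 1, with log2 fold changes between -2.51 (*Cpr65Av*, 2 counts over the mutant libraries and 10 over the *wild-type* libraries) and 1.38 (*Cpr78Cb*, 10 counts and 3 counts). Clusters 50C and 76B had no measured gene. Among these genes the level per kilobase was above 10 only in *Cpr65Ec*, which had 22.2, 20.1 and 11.7 CPM in *dLsd1* mutant discs, against 15.8, 17.8 and 14.5 CPM in *wild-type* discs, with overlapping libraries and a log2 fold change of 0.17 ± 0.23 (SE). *Cpr72Eb* was lower in every mutant library, with 0.576, 0.259 and 0.162 CPM in *dLsd1* mutant discs, against 0.733, 0.715 and 0.862 CPM in *wild-type* discs, but did not pass the test (adjusted p of 0.244 in edgeR).

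The Cpr genes that stand alone included 5 that were upregulated. *Cpr66D* on 3L had 45.2, 51.4 and 55.4 CPM in *dLsd1* mutant discs, against 28.3, 30.2 and 18.1 CPM in *wild-type* discs. No libraries overlapped, and the log2 fold change was 0.99 ± 0.20 (SE, adjusted p of 0.0242 in edgeR), lost without mutant replicate 2 or 3. *Cpr31A* on 2L had 6.86, 7.24 and 8.84 CPM in *dLsd1* mutant discs, against 4.93, 4.22 and 3.14 CPM in *wild-type* discs. This separation gave a log2 fold change of 0.90 ± 0.21 (SE, adjusted p of 0.0470 in edgeR), lost when any 1 mutant library was left out. *Cpr56F* on 2R had 12.6, 9.81 and 11.7 CPM in *dLsd1* mutant discs, against 5.79, 5.65 and 8.18 CPM in *wild-type* discs. It was also separate, at 0.79 ± 0.19 (SE) on the log2 scale (adjusted p of 0.0474 in edgeR), and was called in 1 of the 6 fits with a library left out, the one without *wild-type* replicate 3.

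*Cpr11A* on X had 1.40, 1.37 and 1.78 CPM in *dLsd1* mutant discs, against 0.659, 0.429 and 0.707 CPM in *wild-type* discs. The mutant libraries all lay above, with a log2 fold change of 1.29 ± 0.33 (SE, adjusted p of 0.0627 in edgeR), and this call was likewise kept in 1 of those 6 fits, again the one without *wild-type* replicate 3. *Cpr92F* on 3R had 13, 27 and 8 counts in *dLsd1* mutant libraries, against 1, 2 and 0 counts in *wild-type* libraries. Scaled to library size, the ratio of its sums was 13.8 (95% interval for counting error only, 4.46 to 69.4), and the adjusted p in edgeR was 0.0951, the nearest to the threshold of the 13 calls. The call was lost in 4 of the fits with a library left out, those without a mutant library and the one without *wild-type* replicate 1.

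*Cpr12A* on X, the second highest Cpr gene of *wild-type* discs per kilobase, was the only one called downregulated. It had 61.4, 44.6 and 43.3 CPM in *dLsd1* mutant discs, against 90.1, 69.0 and 84.9 CPM in *wild-type* discs. Every mutant library lay below every *wild-type* library, and the log2 fold change was -0.71 ± 0.17 (SE, adjusted p of 0.0502 in edgeR). The call was lost without mutant replicate 2, mutant replicate 3 or *wild-type* replicate 1. *Cpr78E* on 3L was likewise lower in each mutant library, with 21.6, 20.1 and 11.5 CPM in *dLsd1* mutant discs, against 30.9, 41.6 and 22.3 CPM in *wild-type* discs. Its log2 fold change of -0.83 ± 0.31 (SE) had an adjusted p of 0.226 in edgeR. With the replicate number as a block it was downregulated (adjusted p of 0.0178 in edgeR), which made 2 downregulated Cpr genes, and so it was in DESeq2 (adjusted p of 0.0705).

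**Figure D4:**
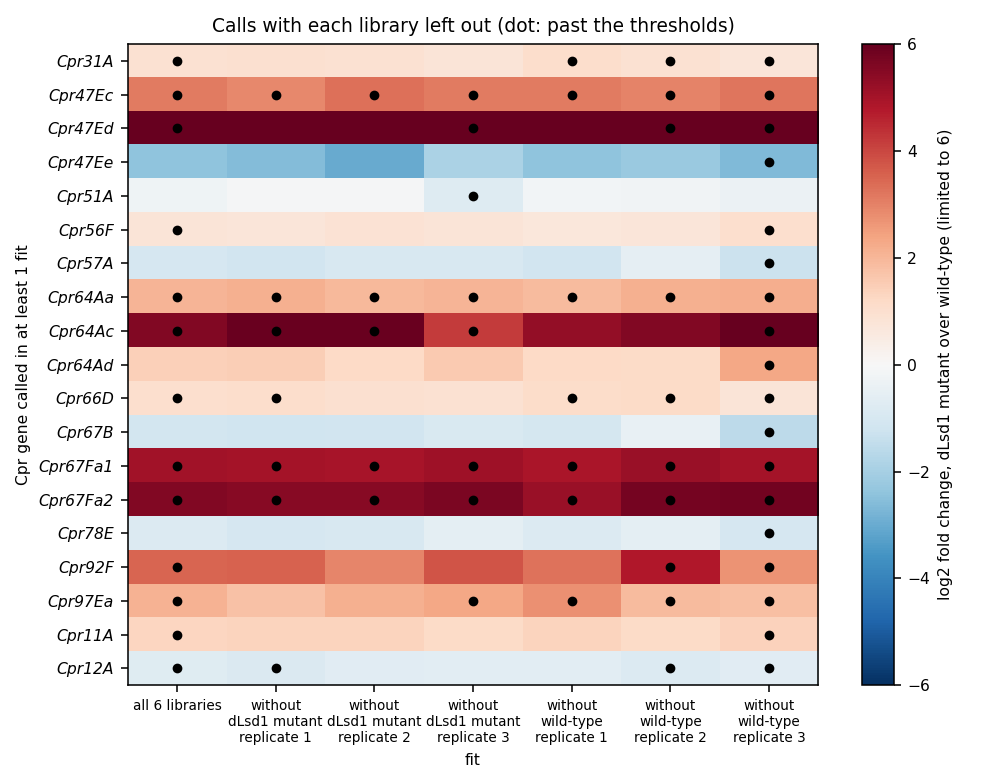
Log2 fold change, *dLsd1* mutant over *wild-type*, of the 19 Cpr genes called in at least 1 fit (rows), with all 6 libraries and with each library left out in turn (columns), with dots for calls and colours limited to 6. Only *Cpr67Fa1*, *Cpr67Fa2*, *Cpr64Aa* and *Cpr47Ec* carry a dot in all 7 columns, and the column without *wild-type* replicate 3 has the most dots, 18.

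The plot of calls with each library left out shows that leaving out *wild-type* replicate 3 added 5 calls and leaving out mutant replicate 3 added 1, *Cpr51A*. Without *wild-type* replicate 3 *Cpr64Ad* was also upregulated and *Cpr47Ee*, *Cpr57A*, *Cpr67B* and *Cpr78E* were downregulated, which made 5 downregulated genes. All 1488 exon bases of *Cpr57A* are shared with *Obp57d* on the same strand. *Cpr57A* had 67 counts over the mutant libraries and 100 over the *wild-type* libraries, and *Obp57d* had 66 and 97. The counts of *Cpr57A* can thus not be assigned to it alone. *Cpr67B* had 1.48, 1.39 and 1.00 CPM in *dLsd1* mutant discs, against 2.86, 5.01 and 0.641 CPM in *wild-type* discs. *Cpr60D* had 1.04, 0.212 and 0.703 CPM in *dLsd1* mutant discs, against 0.440, 1.65 and 0.0221 CPM in *wild-type* discs. In both genes *wild-type* replicate 3 was the lowest of the 6 libraries and *wild-type* replicate 2 the highest. The larval cuticle genes *Lcp1*, *Lcp2*, *Lcp3* and *Lcp4*, looked up as markers of larval epidermis, had a summed level of 112, 13.7 and 42.0 CPM in *dLsd1* mutant libraries, against 124, 317 and 9.35 CPM in *wild-type* libraries, and so were also lowest in *wild-type* replicate 3 and highest in *wild-type* replicate 2. These *Lcp* genes did not all share that order, as *Lcp3* had 150 counts in mutant replicate 1 and 3 in *wild-type* replicate 2. Summed fat body markers, given below, had the same order. So did salivary gland markers, at 2.85, 14.4 and 6.89 CPM in *dLsd1* mutant libraries, against 2.39, 24.8 and 0.641 CPM in *wild-type* libraries. The part of these tissues in the levels of *Cpr67B* and *Cpr60D* was not tested.

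By level, the Cpr genes ranged between 0.0292 CPM per kilobase in *Cpr78Cb* and 146 CPM per kilobase in *Cpr49Ac*, as means of the 6 libraries. The mean level over the 6 libraries was under 1 CPM per kilobase in 25 genes, between 1 and 10 in 9 and at least 10 in 9. Of the 25 rare genes 5 were upregulated, of the 9 intermediate ones 5, and of the 9 abundant ones 2 were upregulated and 1 downregulated. The share of all genes called within the same bands is not given here, so the bands cannot be compared with genes in general. The median standard error of the log2 fold change was 0.69, 0.32 and 0.20 in the 3 bands from low to high, so changes of a given size were harder to detect among the rare genes.

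**Figure D5:**
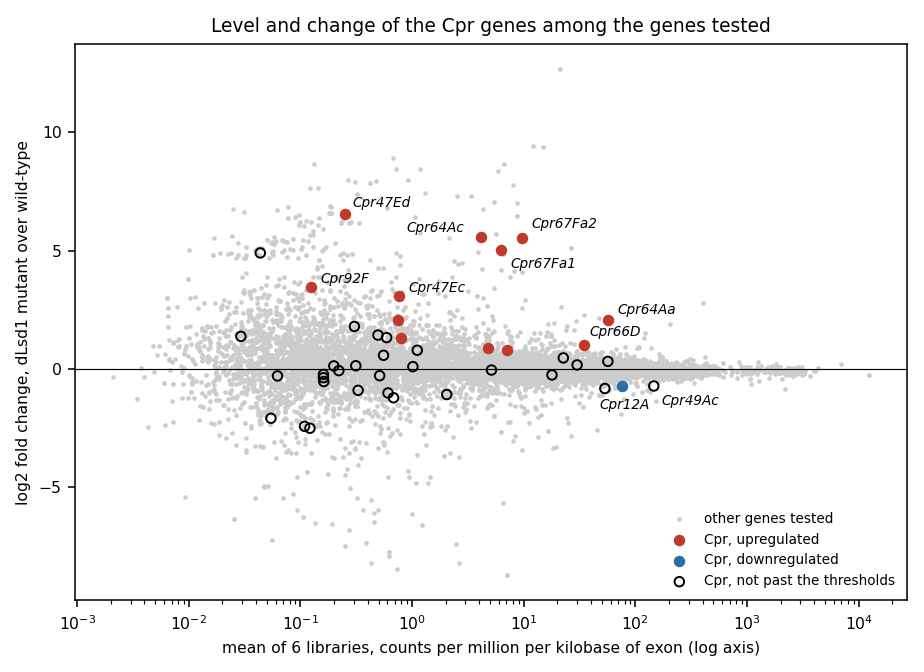
Mean level over the 6 libraries (CPM per kilobase of exon, log axis) against log2 fold change, *dLsd1* mutant over *wild-type*, for the Cpr genes (coloured when called, open when not) and all other genes tested (grey). Upregulated Cpr genes occur in all 3 bands of level, and the largest fitted changes are in genes below 10 CPM per kilobase.

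In the plot of level against change *Cpr49Ac*, *Cpr12A*, *Cpr64Aa*, *Cpr49Ag* and *Cpr78E* stood at the right. *Cpr49Ac* led in both genotypes, with 110 ± 44.3 CPM per kilobase in *dLsd1* mutant discs and 182 ± 44.7 CPM per kilobase in *wild-type* discs (SD, n = 3 each). *Cpr64Aa* ranked second in *dLsd1* mutant discs with 91.5 ± 9.97 CPM per kilobase and seventh in *wild-type* discs with 22.0 ± 4.52 CPM per kilobase (SD, n = 3 each). In the mutant its level could not be set apart from that of *Cpr49Ac* given their spread, whereas *Cpr49Ag*, next in order with 63.0 ± 8.66 CPM per kilobase, lay below it. In *wild-type* discs the levels of *Cpr66D* (23.1 ± 5.90), *Cpr64Aa*, *Cpr51A* (19.5 ± 2.08) and *Cpr49Ah* (19.0 ± 2.90 CPM per kilobase) lay within their spread of each other. *Cpr67Fa2* was ninth in *dLsd1* mutant discs with 18.8 ± 2.38 CPM per kilobase, against 0.440 ± 0.210 CPM per kilobase in *wild-type* discs. *Cpr51A*, the last of the 10 with the highest mean, had 7.51, 7.52 and 16.8 CPM in *dLsd1* mutant discs, against 13.8, 13.1 and 11.2 CPM in *wild-type* discs. Its mutant libraries lay on both sides of the *wild-type* ones, and its log2 fold change of -0.25 ± 0.34 (SE) did not pass the test, while without mutant replicate 3 it was called downregulated.

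The 43 genes together made up 699, 592 and 514 CPM in *dLsd1* mutant discs, against 695, 561 and 702 CPM in *wild-type* discs, so that the summed level overlapped between genotypes. *Cpr49Ac* alone was the largest component. Without it the sum was 369, 365 and 371 CPM in *dLsd1* mutant discs, against 272, 284 and 247 CPM in *wild-type* discs, and the genotypes no longer overlapped. The means were then 368 ± 3.18 CPM in the mutant and 268 ± 18.6 CPM in *wild-type* discs (SD, n = 3 each). *Cpr64Aa*, called upregulated above, carried most of that difference. Without both genes the sum was 287, 263 and 276 CPM in *dLsd1* mutant discs, against 255, 259 and 222 CPM in *wild-type* discs, with means of 275 ± 12.1 CPM and 246 ± 20.1 CPM (SD, n = 3 each). Both genes were left out after their values were seen.

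Low counts limit part of the set. Of the 43 genes 4 had fewer than 10 counts over the *dLsd1* mutant libraries and 6 over the *wild-type* libraries. *Cpr47Ed* and *Cpr92A* had 0 counts in *wild-type* discs and so were retained through the mutant libraries alone. *Cpr92F* (48 counts over the mutant and 3 over the *wild-type* libraries) and *Cpr78Cb* (10 and 3) also reached 10 counts in the mutant libraries only. *Cpr47Ee* (5 and 23) and *Cpr65Av* (2 and 10) reached it in the *wild-type* libraries only. Of the 12 upregulated genes 2, *Cpr47Ed* and *Cpr92F*, had fewer than 10 counts over the *wild-type* libraries. *Cpr92A* had 0, 9 and 3 counts in *dLsd1* mutant libraries, so that its genotypes overlapped. Set against a *wild-type* floor of 3 counts over the group, its mutant level was 3.46-fold higher, a value that leaves out the error of the mutant counts. It did not pass the test (adjusted p of 0.265 in edgeR). Of the 35 genes with at least 10 counts in both genotypes 11 were called. The share of all genes called under that filter is not given here, so this count cannot be compared with genes in general. Among the 27 annotated Cpr genes not measured, 10 had no counts and 17 had between 1 and 9 counts over the 6 libraries.

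Gene structure and surroundings were compared next. Among the 43 genes 30 had 2 exons, as did 9 of the 12 upregulated ones, and the exonic length ranged between 421 and 2124 bases with a median of 961. On 3L, the arm that carries *dLsd1* itself, the measured Cpr genes nearest to it were *Cpr78Ca*, *Cpr78Cb* and *Cpr78E* at 1.06, 1.07 and 1.44 Mb, none of them called. The 5 upregulated Cpr genes of 3L lay between 9.34 and 16.0 Mb from it. Within 20 kb of the 12 upregulated genes 46 other genes were tested. Of these 6 were upregulated (13.0%, against 4.32% of all genes) and 0 downregulated by edgeR (2 lower at an unadjusted p below 0.05, 1 downregulated by DESeq2). Their median log2 fold change was 0.04. Among the 6 were *obst-B*, a secreted chitin-binding protein gene 15259 bases from *Cpr31A*, and *Lsp1alpha*, a larval serum protein gene 843 bases from *Cpr11A*. The others were *CG13868*, *CG15005*, *CG13305* and *Nep4*.

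Other genes of cuticle and chitin were looked up for comparison, in lists from which some symbols were not matched in the tables. Of 34 further cuticle protein genes measured 7 were upregulated and 2 downregulated, with a median log2 fold change of 0.38. Of all genes tested 4.32% were upregulated and 2.23% downregulated, with a median of -0.02. The upregulated ones were *Lcp65Ag1*, *Lcp65Ag2*, *Lcp65Ag3*, *Lcp65Ae*, *Lcp65Af* and *Lcp65Ad*, larval cuticle protein genes that also carry the Rebers and Riddiford consensus, and *obst-B*. *Lcp65Ag3* had 611, 854 and 1159 counts in *dLsd1* mutant libraries, against 0 counts in all 3 *wild-type* libraries. The *Lcp65Ag* genes are near-identical copies whose reads may be split between them. *Lcp65Ag2*, the copy with *wild-type* counts, had 320, 356 and 460 counts in *dLsd1* mutant libraries, against 17, 7 and 35 counts in *wild-type* libraries. The 2 downregulated genes were *TwdlW*, of the Tweedle cuticle protein family, and *Vajk4*. *Lcp65Ab1* and *Lcp65Ab2*, neither of them called, had identical counts in every library. They are thus not separate measurements among the 34 genes or in their median.

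Of 25 genes of chitin synthesis and modification 1 was upregulated and 3 downregulated, with a median log2 fold change of 0.20. The gene upregulated was *exp*, which is needed for chitin deposition, at 12.6 ± 0.729 CPM in *dLsd1* mutant discs and 6.19 ± 0.765 CPM in *wild-type* discs (SD, n = 3 each). Those downregulated were the chitin deacetylase gene *Cda4* and the chitinase genes *Cht7* and *Cht10*. *Cht10* averaged 637 ± 104 CPM in *dLsd1* mutant discs and 1627 ± 567 CPM in *wild-type* discs (SD, n = 3 each), with a log2 fold change of -1.35 ± 0.27 (SE, adjusted p of 0.0346 in edgeR). None of the 4 cuticle tanning genes measured was called by edgeR or DESeq2, and 0 had an unadjusted p below 0.05. With the replicate number as a block, 21 of the 63 genes of these 3 lists were called in place of 13, and with each library left out in turn between 7 (without mutant replicate 2) and 21 (without *wild-type* replicate 3), with 8 without *wild-type* replicate 1.

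The ecdysone genes, which time the moults at which cuticle is made, were looked up next to these. Of 20 measured 1 was upregulated and 0 downregulated by edgeR, where 4.32% and 2.23% of all genes tested were. The list had 1 gene lower at an unadjusted p below 0.05 in edgeR and 1 downregulated by DESeq2. Its median log2 fold change was -0.04. The gene called upregulated was *ImpL1*, induced by ecdysone in imaginal discs. It had 125, 84 and 57 counts in *dLsd1* mutant libraries, against 33, 5 and 40 counts in *wild-type* libraries. The summed level of the list was 7610, 6267 and 5506 CPM in *dLsd1* mutant libraries, against 7244, 5304 and 10152 CPM in *wild-type* libraries, so *wild-type* replicate 3 was the highest. Among its genes *br*, a transcription factor induced by ecdysone, had 22665, 28437 and 27836 counts in *dLsd1* mutant libraries, against 18153, 7264 and 79062 counts in *wild-type* libraries. *Hr3* and *Blimp-1* were likewise highest in *wild-type* replicate 3, with 1209 and 4596 counts. The list had 7 calls without that library, a fit in which 15.0% of all genes tested were called. The part of the ecdysone genes in the Cpr levels was not tested. Markers of other tissues were called as follows, to be set against the same shares of all genes in the main fit. *Mlc2* was upregulated among 10 muscle genes, *Lsp1alpha* among 8 of fat body and *Amy-p* among 4 of gut, and among 8 haemocyte genes *PPO1* was upregulated and *NimC1* downregulated. None of 3 haltere and leg disc, 3 tracheal, 7 salivary gland and 4 larval epidermis genes was called by edgeR. At an unadjusted p below 0.05 these were 0, 1, 1 and 0 genes, and DESeq2 called 1, of the salivary gland. The 4 larval epidermis genes and the tracheal gene *Gasp* are also among the further cuticle protein genes. The summed fat body level was 659, 449 and 216 CPM in *dLsd1* mutant libraries, against 641, 935 and 136 CPM in *wild-type* libraries, overlapping between genotypes. That of the haemocyte genes was 89.5, 140 and 128 CPM in *dLsd1* mutant libraries, against 67.8, 68.8 and 85.8 CPM in *wild-type* libraries, with no overlap, 7 of 8 genes above 0 and 3 upregulated by DESeq2. Muscle genes summed to 237, 229 and 174 CPM in *dLsd1* mutant libraries, against 146, 157 and 190 CPM in *wild-type* libraries, with overlap, 7 of 10 genes above 0 and a median log2 fold change of 0.66. The part of these tissues in the Cpr levels was not tested.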

How the data were processed

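Per the labels and the study's methods, RNA of wing discs was made into stranded mRNA libraries and sequenced in pairs, and reads were trimmed with Trimmomatic 0.36 and aligned to dm6 with STAR 2.5.2a (versions from the submitters' processing notes). Duplicates were removed with Picard. The authors deposited 1 table per library of whole-number counts, without normalization, for 17471 genes and 171 TE families, in the format of TEToolkit. For genes the study names htseq-count and DESeq2. Whether duplicates were removed before these counts, the annotation release, the strand setting and the treatment of reads with several matches are not given in the sources used here. Symbols and positions came from the Ensembl annotation of BDGP6, matched by FlyBase identifier for 17249 genes.

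Features that reached 10 counts over the libraries were tested in edgeR 4.0.16 (R 4.3.3) by the robust quasi-likelihood F-test with TMM, with genotype as the only term, and p-values were adjusted over all of them. The SE of a log2 fold change is its size over the square root of its F statistic. Thresholds of 0.6 and 0.1 follow the study. Where a genotype had no counts, the fold was set against a floor of 3 counts over the group, which leaves out the error of the other genotype. Ratios on 1 to 3 counts have exact conditional intervals. Tables were made with pandas 2.3.3 and scipy 1.17.1. The fit was tested on simulated data. Alternatives were DESeq2 1.42.0, upper-quartile normalization, other filters, genes only, stricter thresholds, a replicate block, summed sister copies, other cluster gaps and each library left out. The same alternatives for the ecdysone list and the window of 20 kb were added after the data were seen.

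The main fit took no account of pairing between libraries. The replicate number in the titles was used as a block in an alternative fit only. Deviations from the genotype means correlated between libraries of the same number (0.36, 0.17 and 0.40 over 8070 genes). Of the pairs with unlike numbers, mutant 1 with *wild-type* 2 correlated at 0.29, above the 0.17 of the pair of number 2. The other 5 were below 0. Deviations from a mean of 3 libraries sum to near 0, so negative values among unlike pairs do not show pairing. Whether the numbers pair the libraries is therefore not settled. Pairs of replicates differed beyond counting error (chi-square per degree of freedom between 31.3 and 224). The sources do not say whether they came from separate crosses, so p-values measure only the spread between these libraries.

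The Cpr set and the lists were chosen with earlier results of these data known. Named with values were all Cpr genes called, the 10 with the highest level per length and the 2 uncalled genes with the lowest adjusted p. Further members were named after their values were seen.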

Additional observations from a re-analysis of the deposited data

How the results depend on the processing

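For the 13 Cpr genes called (12 up, 1 down), DESeq2 and the replicate block kept all 13 and added *Cpr78E*, which gave 2 downregulated genes in each, and the block changed no other Cpr call. The stricter thresholds (1 and 0.05) left 6 called, all 6 upregulated and 0 downregulated. With each library left out in turn the count ranged between 5 and 18, the upregulated between 5 and 13 and the downregulated between 0 and 5. Fits with 2 libraries in a genotype have less power, and beyond that the cause was not tested. Of the other cuticle and chitin genes 20 were called by DESeq2, 21 with the block and between 7 and 21 with a library left out. Over all genes 710 were called, 391 at the stricter thresholds and between 373 and 1588 with a library left out. Of the ecdysone genes 2 were called by DESeq2 and 2 with upper-quartile normalization, 0 at the stricter thresholds and between 0 and 7 with a library left out. *Cpr65Ec* turned direction without mutant replicate 1, at a log2 fold change of -0.0074, and was highest at 0.40 without mutant replicate 3. filterByExpr tested 29 of the 43 Cpr genes and called 11, without *Cpr47Ed* and *Cpr92F*, and the other filter and genes only gave 13. Gaps of 20 and 100 kb gave 12 and 13 clusters. Values near 0 counts are limited by depth, most in *wild-type* replicate 2.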
